A study of Mus with 8 samples.

Results

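Genes of the cAMP feedback circuit, 10 in number, were followed in mouse 3T3-L1 preadipocytes: the orphan nuclear receptors Nr4a1, Nr4a2 and Nr4a3, the phosphodiesterases Pde4b, Pde4d and Pde3b, and the CREB-side genes Creb1, Crem, Sik1 and Ppargc1a. They were chosen by name, as known responders to or brakes on cAMP, but with earlier results of these data known. All 10 were found among the 24013 genes of the count table. All 10 also passed the filter on low counts that left 13339 genes for testing.

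3T3-L1 cells are fibroblast-like cells of a mouse line that turn into adipocytes after hormonal induction. C cells carried a lentiviral scrambled shRNA and P cells a lentiviral shRNA against Prep1, a homeodomain transcription factor encoded by Pknox1, and both were selected with puromycin. RNA was sequenced in each line at day −2, before induction, and at day 1 of induction, with 2 libraries in each of the 4 conditions and 8 in all. At day 1 the cells were still in the induction medium, which held 1 µM dexamethasone, 0.5 mM IBMX, 1 µg/ml insulin and fetal bovine serum in place of the bovine calf serum of the growth medium. Dexamethasone is a synthetic glucocorticoid and IBMX (3-isobutyl-1-methylxanthine) a broad inhibitor of phosphodiesterases. The comparison of day 1 with day −2 therefore joined the hormones, the change of serum and the days between, which cannot be told apart. P cells carried 1 shRNA sequence, so no effect of that sequence can be told apart from loss of Prep1 in these libraries.

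Cyclic AMP is made by adenylyl cyclases downstream of Gs-coupled receptors and is destroyed by phosphodiesterases. It frees the catalytic subunits of protein kinase A, which phosphorylate the transcription factor CREB at cAMP response elements, and the NR4A receptors are classical rapid targets of that route. The circuit limits itself: PDE4 and PDE3 enzymes hydrolyse the messenger, a short repressor form made from Crem occupies the same elements, and the kinase SIK1 holds CREB's coactivators in the cytoplasm. Raising cAMP is 1 of the standard steps in starting adipogenesis in this cell line.

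Library totals ran from 20428816 to 27614353 counts, so that 3 counts corresponded to 0.107 to 0.160 CPM, the count per 1000000 counts of the TMM-scaled library total. Pknox1 was at 28.1 and 26.5 CPM in uninduced C cells and 17.3 and 18.3 in uninduced P cells, and at 38.1 and 36.5 against 23.6 and 23.8 at day 1. The targeted transcript was thus lower in P than in C cells at both days, with no overlap. A lack of overlap was also seen in 53.8% of all tested genes at day −2 and 60.5% at day 1. The ratios were 0.652 and 0.636 (adjusted p = 0.0558 and 0.0575 in the quasi-likelihood test of edgeR with Benjamini-Hochberg adjustment). Neither was below the ratio of 0.5 that a call needed, so Pknox1 was not called at either day. Replica 1 of uninduced P cells stood apart. The difference in log2 CPM between the 2 replicas of that condition had an SD of 0.795 across 5600 well-counted genes, against 0.121 to 0.261 in the other conditions. In replica 1 the summed CPM of 10 fibroblast markers was 50544, against 15292 in replica 2 and 12053 to 19547 in the remaining libraries. For results that rest on uninduced P cells, the values without that library are given beside those with it or together after the single genes. All 10 fibroblast markers were detected in every condition, and the summed level of the macrophage and endothelial markers lay between 3.90 and 9.68 CPM in all 8 libraries. The summed adipocyte markers were at 22.5 to 23.2 CPM in uninduced C cells and 46.9 to 53.5 in uninduced P cells, and at 53.1 to 59.3 and 209 to 211 at day 1. Whether this difference in adipocyte markers has a part in the results below was not tested, and more cells of a type cannot be told apart from more RNA per cell in such bulk samples.

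A gene was called changed when its ratio was above 2 or below 0.5 with a Benjamini-Hochberg adjusted p under 0.1 in edgeR's quasi-likelihood test over all tested genes. By this measure induction in C cells raised 7 of the 10 genes, where 10.7% of all tested genes were called higher and 20.4% were called in either direction. In P cells induction raised 5 of the 10, against 7.65% called higher and 18.0% in either direction. Before induction P cells had 3 of the genes higher and 1 lower than C cells, where 4.83% of all tested genes were higher, 2.15% lower and 6.98% called in all. At day 1 none of the 10 was called between P and C cells by edgeR or by DESeq2, 4.06% of all tested genes were called, with 1.83% higher and 2.23% lower, and 2 of the 10 (Pde4b and Pde4d) had an unadjusted p under 0.05 in edgeR. Replicas of the 2 conditions compared did not overlap in 10, 8, 7 and 6 of the genes, against 77.7%, 60.6%, 53.8% and 60.5% of all tested genes, so that a lack of overlap was common in the table as a whole. With library totals in place of TMM scaling the 7 calls in C cells became 6 higher and 1 lower, and over all tested genes the share of calls that were higher went from 42.4% to 54.5% in P cells and from 69.2% to 55.4% before induction. The median log2 ratio over the 10 genes was 1.67, 1.06, 0.06 and −0.09 in these comparisons in order, against −0.01, 0.02, 0.01 and 0.01 over all tested genes. Because the C libraries of day −2 enter both the induction in C cells and the comparison of P with C cells before induction, those results are not independent of each other.

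**Figure D1:**
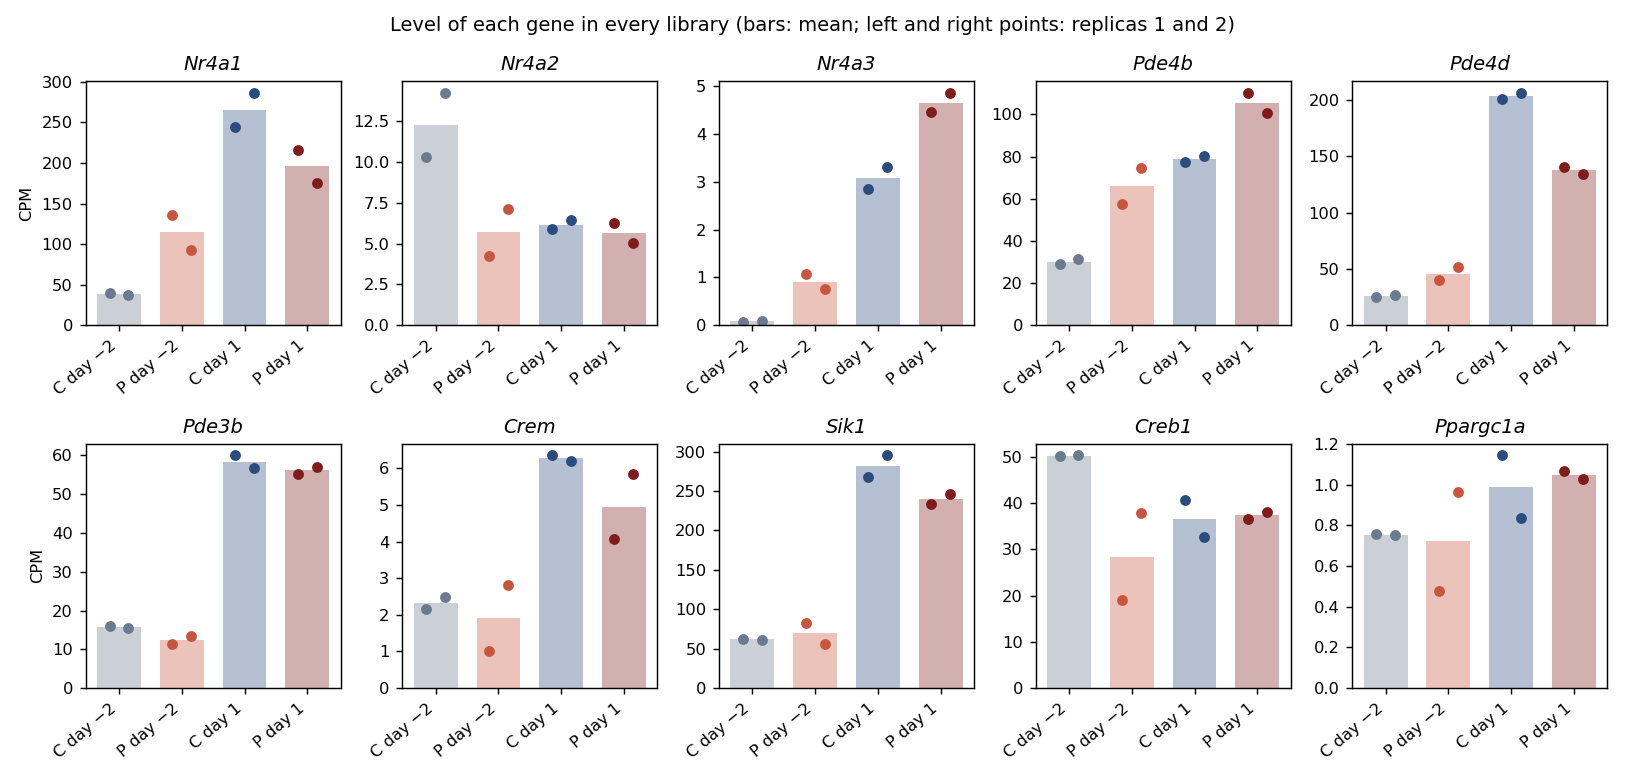
Level of each of the 10 genes in every library, in CPM on linear axes that start at 0, by condition, with bars at the mean of the 2 replicas and 1 point per replica. Nr4a1, Nr4a3, Pde4b and Pde4d climb from uninduced C cells through uninduced P cells to both day 1 conditions without overlap, whereas Pde3b, Crem and Sik1 separate by day and Ppargc1a stays at 1.14 CPM or below.

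Nr4a1 (gene ID 15370), an orphan nuclear receptor encoded by an immediate early gene, was at 39.7 and 37.2 CPM in uninduced C cells and at 245 and 286 CPM in induced C cells. In P cells it was already at 135 and 93.3 CPM at day −2, and it reached 216 and 175 CPM at day 1. The 4 conditions did not overlap, and their order from low to high was uninduced C cells, uninduced P cells, induced P cells and induced C cells. The mean in uninduced P cells, 114 ± 29.8 CPM (SD, n = 2), was 43.1% of the mean of induced C cells, 266 ± 29.6 CPM. Nr4a1 rose 6.90-fold on induction in C cells (log2 ratio 2.79, SE 0.23, adjusted p = 0.000391 in the quasi-likelihood test of edgeR with Benjamini-Hochberg adjustment). The corresponding ratio in P cells was 1.71 (log2 0.77, SE 0.22, adjusted p = 0.0464 by the same edgeR test), which was under the ratio of 2 and was not called. Without replica 1 of uninduced P cells the log2 ratio was 1.06 (SE 0.16, adjusted p = 0.00108 in edgeR) and Nr4a1 was called in P cells too, and the remaining replica of uninduced P cells stood at 35.1% of the mean of induced C cells.

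Nr4a3 (gene ID 18124), a relative of Nr4a1 with the same kind of DNA-binding domain, was almost undetected in uninduced C cells, with 2 counts in each library. Uninduced P cells gave 20 and 21 counts, or 1.07 and 0.749 CPM. At day 1 the level was 2.84 and 3.30 CPM in C cells and 4.44 and 4.86 CPM in P cells. All 4 conditions were apart here too, although the receptor remained scarce at its highest. Because the day −2 C libraries lay below the limit of 3 counts, ratios of summed counts carry the size of the change: 41 against 4 counts gave uninduced P cells a ratio of 10.4 over C cells, with a 95% exact interval of 3.78 to 40.1. Induction gave 36.6 (14.0 to 136) in C cells and 5.30 (3.78 to 7.60) in P cells. These intervals cover counting error only and not the spread between replicas.

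Nr4a2 (gene ID 18227), the remaining receptor of the family, was highest in C cells before induction. Its level was 10.3 and 14.2 CPM in uninduced C cells, and the other 6 libraries lay between 4.26 and 7.13 CPM. Uninduced C cells were thus above every other library, while uninduced P cells, induced C cells and induced P cells overlapped. On induction in C cells the log2 ratio was −0.99 (SE 0.30, adjusted p = 0.053, the quasi-likelihood test of edgeR with Benjamini-Hochberg adjustment), just short of the ratio threshold. In P cells the log2 ratio was −0.02 (SE 0.31), with no call.

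Pde4d (gene ID 238871), a cAMP-specific phosphodiesterase, had the largest log2 ratio on induction in C cells after Nr4a3. Its level was 25.2 and 27.2 CPM in uninduced C cells and 40.2 and 51.6 CPM in uninduced P cells. At day 1 it was at 200.4 and 206 CPM in C cells and at 141 and 134 CPM in P cells. The conditions did not overlap, and P cells lay between both C conditions at both days. Pde4d rose 7.76-fold in C cells (log2 ratio 2.96, SE 0.17, adjusted p = 0.000116) and 2.99-fold in P cells (log2 ratio 1.58, SE 0.16, adjusted p = 0.00126), both by the quasi-likelihood test of edgeR with Benjamini-Hochberg adjustment. The microRNA genes Mir582 and Mir1904 lie within the span of Pde4d in the reference annotation, and how shared reads were assigned is not given in the sources used here.

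Pde4b (gene ID 18578), a second cAMP-specific phosphodiesterase of the same subfamily, was at 28.9 and 31.3 CPM in uninduced C cells. Uninduced P cells held 57.7 and 74.5 CPM, near the 77.5 and 80.2 CPM of induced C cells, and induced P cells held 110.3 and 100.5 CPM. The mean of P cells before induction was 83.9% of that of induced C cells, the highest such share among Nr4a1, Nr4a3, Pde4b, Pde4d, Pde3b and Sik1, and replica 2 alone stood at 94.5%. The conditions again did not overlap. Pde4b rose 2.62-fold on induction in C cells (log2 ratio 1.39, SE 0.17, adjusted p = 0.00181, the quasi-likelihood test of edgeR with Benjamini-Hochberg adjustment). In P cells the ratio of day 1 to day −2 was 1.59 (log2 0.67, SE 0.17), below the ratio threshold.

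Pde3b (gene ID 18576), the phosphodiesterase through which insulin lowers cAMP in adipocytes, rose in both lines. It was at 16.1 and 15.4 CPM in uninduced C cells and 11.5 and 13.4 CPM in uninduced P cells. At day 1 the values were 60.0 and 56.7 CPM in C cells and 55.3 and 57.0 CPM in P cells, which overlapped. The rise was 3.71-fold in C cells (log2 ratio 1.89, SE 0.15) and 4.52-fold in P cells (log2 ratio 2.18, SE 0.15), each with an adjusted p of 0.000333 in the quasi-likelihood test of edgeR with Benjamini-Hochberg adjustment.

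Sik1 (gene ID 17691), the salt-inducible kinase that restrains CREB's coactivators, also rose in both lines. Its levels were 62.8 and 61.2 CPM in uninduced C cells and 82.3 and 56.5 CPM in uninduced P cells. At day 1 they were 268 and 295 CPM in C cells and 234 and 246 CPM in P cells. The lines overlapped before induction, and the log2 ratio was 2.18 (SE 0.20, adjusted p = 0.000626) in C cells and 1.79 (SE 0.20, adjusted p = 0.00167) in P cells, by the quasi-likelihood test of edgeR with Benjamini-Hochberg adjustment.

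Crem (gene ID 12916), which encodes CREB-related activators and, from an internal promoter, the short repressor ICER, rose in both lines. It was at 2.15 and 2.48 CPM in uninduced C cells and 1.01 and 2.82 CPM in uninduced P cells, and at 6.35 and 6.21 CPM in induced C cells and 4.06 and 5.84 CPM in induced P cells. Day 1 lay above day −2 without overlap within each line. The log2 ratios of 1.44 (SE 0.45, adjusted p = 0.0563) in C cells and 1.34 (SE 0.45, adjusted p = 0.0794) in P cells passed the call in the quasi-likelihood test of edgeR with Benjamini-Hochberg adjustment, but neither call was stable. Both were lost with a limit of 0.05 on the adjusted p. The call in C cells was also lost with library totals and without any 1 of the C libraries. The call in P cells was lost in 10 of 19 alternatives, among them leaving out replica 1 of uninduced P cells (log2 ratio 0.80), and its log2 ratio ran from 0.80 to 2.29 with a library left out. Counts per gene cannot separate ICER from the longer forms, and Gm6225 lies within the span of Crem.

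Creb1 (gene ID 12912), the CREB factor itself, was not called in any of the comparisons. Its level was at 50.2 and 50.3 CPM in uninduced C cells, at 19.0 and 37.8 CPM in uninduced P cells, at 40.6 and 32.6 CPM in induced C cells and at 36.7 and 38.2 CPM in induced P cells. The C libraries of day −2 were above all others, and the remaining conditions overlapped. Its log2 ratio on induction was −0.46 (SE 0.31) in C cells and 0.40 (SE 0.31) in P cells. The replicas of uninduced P cells differed 1.99-fold in Creb1, against 1.28-fold in Pde4d and 1.29-fold in Pde4b.

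Ppargc1a (gene ID 19017), which encodes the coactivator PGC-1α and is a cAMP target in brown fat and liver, was scarce in these cells. The 8 libraries held 9 to 29 counts each, or 0.479 to 1.14 CPM. Its log2 ratio on induction was 0.39 (SE 0.46) in C cells and 0.51 (SE 0.46) in P cells, and neither was called. Its replicas in uninduced P cells differed 2.01-fold.

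Without replica 1 of uninduced P cells, induction in P cells again gave 5 calls in edgeR, with Nr4a1 called and Crem not. The log2 ratio was then 2.62 for Nr4a3, 1.40 for Pde4d, 2.06 for Pde3b and 2.07 for Sik1, which stayed called. It was 0.49 for Pde4b, −0.34 for Nr4a2, −0.02 for Creb1 and 0.11 for Ppargc1a, which were not called.

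**Figure D2:**
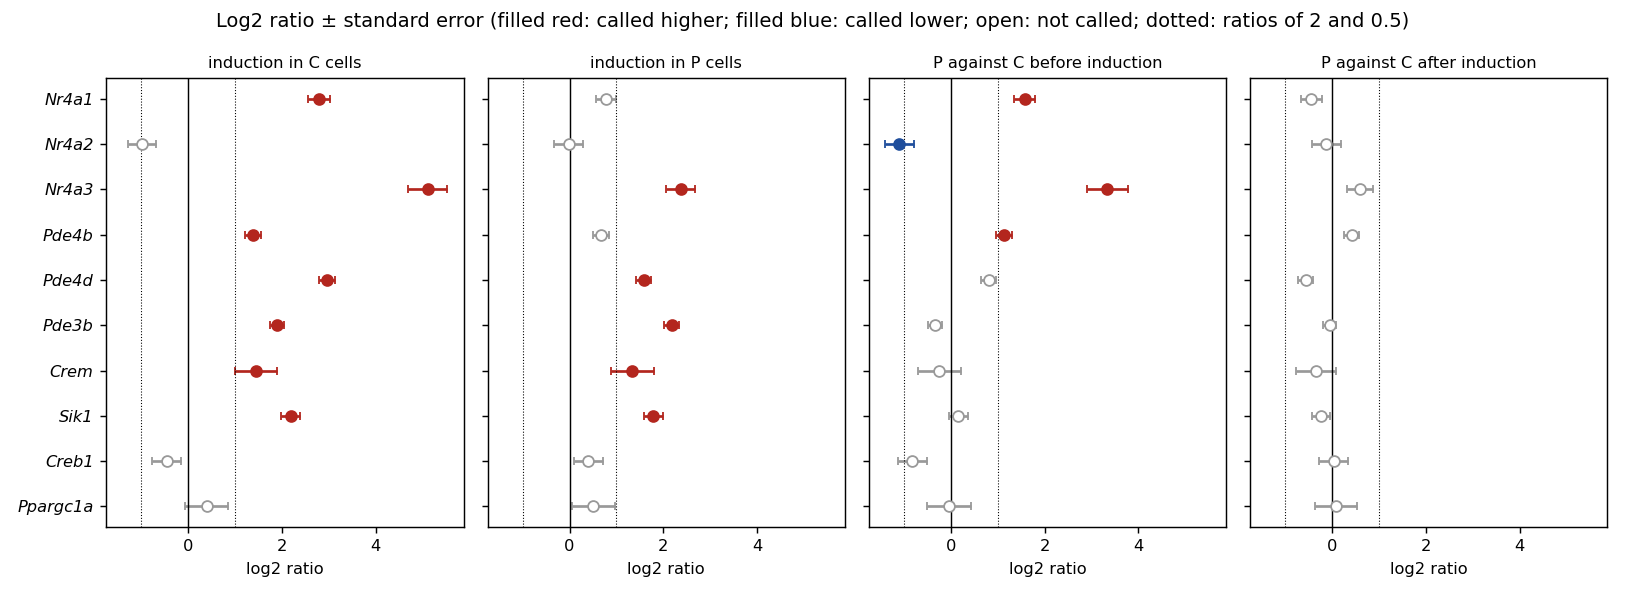
Log2 ratio of each of the 10 genes in the 4 comparisons, with bars of 1 standard error from edgeR, filled points for calls (red higher, blue lower), open points for genes not called and dotted lines at ratios of 2 and 0.5. Induction moves 7 genes up in C cells and 5 in P cells, before induction Nr4a1, Nr4a3 and Pde4b are higher and Nr4a2 is lower in P cells, and at day 1 no point is filled.

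The comparison of uninduced P and C cells asks what lowering Prep1 does before any inducer is added. Nr4a1 was higher in P cells by a log2 ratio of 1.57 (SE 0.22, adjusted p = 0.0111), or 2.97-fold, in the quasi-likelihood test of edgeR with Benjamini-Hochberg adjustment. Pde4b was 2.20-fold higher (log2 ratio 1.13, SE 0.17, adjusted p = 0.0131 by the same edgeR test). Nr4a3, with its 41 against 4 counts, was also called (adjusted p = 0.00919 in edgeR). Nr4a2 was the 1 member that was lower, by a log2 ratio of −1.10 (SE 0.30, adjusted p = 0.0904 in edgeR). Thus 2 receptors of the family were higher and the remaining 1 lower in the same libraries.

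Pde4d had an adjusted p of 0.0374 in the quasi-likelihood test of edgeR with Benjamini-Hochberg adjustment and a ratio of 1.75, under the threshold of 2. Pde3b had a log2 ratio of −0.34 (SE 0.15), Sik1 of 0.16 (SE 0.19), Crem of −0.24 (SE 0.46), Ppargc1a of −0.04 (SE 0.47) and Creb1 of −0.82 (SE 0.31), and none of these 5 was called. A difference between the lines before induction was thus not shown for the phosphodiesterase Pde3b or the kinase Sik1, both of which rose on induction.

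Both P libraries of day −2 lay above both C libraries in Nr4a1, Nr4a3 and Pde4b. Without replica 1, the library that stood apart, the log2 ratio was 1.29 for Nr4a1 and 1.32 for Pde4b, and both remained called in edgeR along with Nr4a3, whereas Nr4a2 was not (log2 ratio −0.77). Without replica 2 the values were 1.81 for Nr4a1 and 0.93 for Pde4b, so that Pde4b fell under the ratio threshold. Library totals in place of TMM scaling shifted the median of all tested genes by −0.18 and gave Pde4b a log2 ratio of 0.96, or 1.14 relative to that median. In replica 1 the immediate early genes Fos and Fosb were at 317 and 464 CPM against 78.3 and 93.7 CPM in replica 2, and their part in the Nr4a1 level of that library was not tested. A fit of the 4 day −2 libraries alone called none of the 10 genes, with an adjusted p in edgeR of 0.140 for Nr4a1, 0.201 for Pde4b and 0.171 for Nr4a3, and it called 0.637% of all tested genes. In that fit 5 of the 10 had an unadjusted p under 0.05. The calls were also lost in edgeR when 1 of the C libraries of day −2 was left out, where fewer of all tested genes were called as well.

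**Figure D3:**
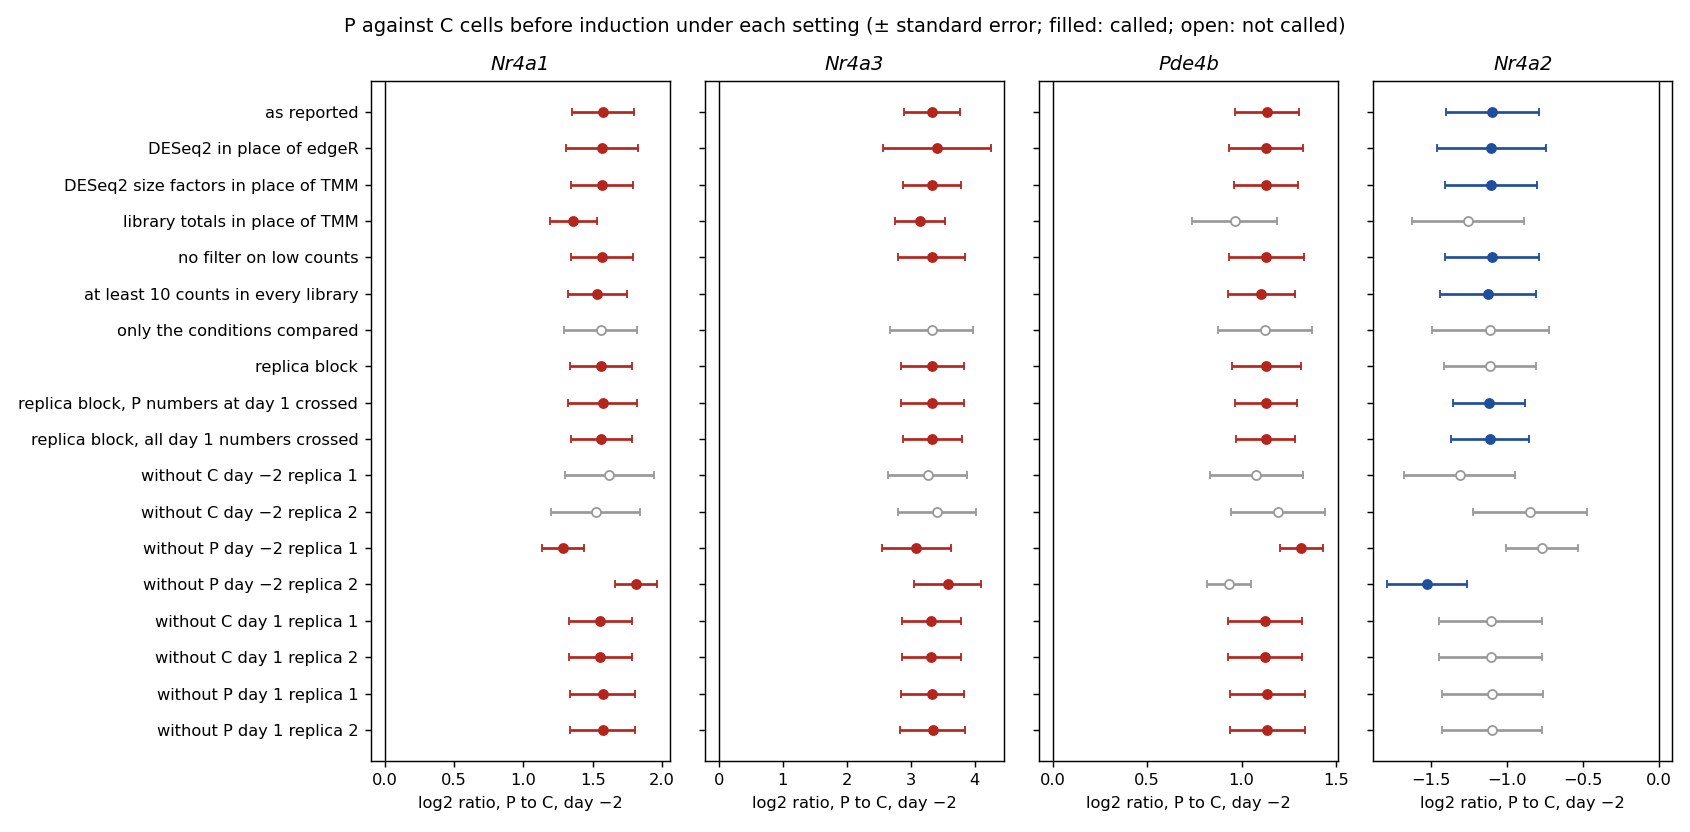
Log2 ratio between P and C cells of day −2 for Nr4a1, Nr4a3, Pde4b and Nr4a2 under each alternative processing and with each library left out, with bars of 1 standard error, filled points where the gene was called and open points where it was not. The direction of each of the 4 genes is kept in every setting drawn, and all 4 points are open in the fit of the day −2 libraries alone and without either C library of day −2.

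At day 1, when both lines had been in the inducers for the same time, the log2 ratio between P and C cells was −0.44 (SE 0.22) for Nr4a1, 0.60 (SE 0.29) for Nr4a3 and −0.12 (SE 0.31) for Nr4a2. For the phosphodiesterases it was 0.42 (SE 0.16) for Pde4b, −0.57 (SE 0.16) for Pde4d and −0.06 (SE 0.14) for Pde3b. The lowest adjusted p among the 10 genes was that of Pde4d, 0.124 in the quasi-likelihood test of edgeR with Benjamini-Hochberg adjustment. The mean of P cells was 73.7% of that of C cells for Nr4a1 and 67.6% for Pde4d, but 134% for Pde4b and 151% for Nr4a3. The replicas of the lines did not overlap in any of these 4 genes. The sign thus differed between the PDE4 genes, with Pde4b above and Pde4d below the level of C cells, in values that did not pass the edgeR test over all 8 libraries. Under alternative processing the adjusted p of both genes fell below 0.1 in at least 1 setting. Their log2 ratios then ran from 0.39 to 0.52 for Pde4b and from −0.59 to −0.46 for Pde4d, short of the ratio threshold. For Sik1 the log2 ratio was −0.23 (SE 0.19), for Crem −0.35 (SE 0.43), for Creb1 0.03 (SE 0.31) and for Ppargc1a 0.08 (SE 0.45).

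The size of the response was compared directly by the interaction of line and day, called at an adjusted p under 0.1 with no ratio threshold. It was called for 3 of the 10 genes, all with a smaller log2 ratio in P cells, where 1.93% of all tested genes were called in that direction and 2.37% in either. For Nr4a1 the log2 ratio in P cells minus that in C cells was −2.01 (SE 0.31, adjusted p = 0.0388 in the quasi-likelihood test of edgeR with Benjamini-Hochberg adjustment). For Pde4d the difference was −1.37 (SE 0.23, adjusted p = 0.0465 in edgeR) and for Nr4a3 −2.74 (SE 0.53, adjusted p = 0.076 in edgeR), the latter resting on the 4 counts of uninduced C cells.

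For Nr4a1 and Pde4d the replicas of P cells lay above those of C cells before induction and below them at day 1. For Nr4a3 they lay above at both days. The difference between the lines before induction is part of the interaction, so the interaction calls are not independent of the calls before induction. Pde4b had a difference of −0.72 (SE 0.23, adjusted p = 0.251 in the quasi-likelihood test of edgeR with Benjamini-Hochberg adjustment), which was not called. Without replica 1 of uninduced P cells the Pde4b difference was −0.92, and without replica 2 it was −0.52. Each of these fits left 1 library in that condition, so only the size of the difference is given. For Pde3b the difference was 0.28 (SE 0.21), for Sik1 −0.39 (SE 0.27) and for Crem −0.10 (SE 0.63), and none of these was called.

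These interaction calls depended on which libraries were kept. They were lost when any 1 library of C cells or any 1 day 1 library of P cells was left out. Fewer of all tested genes were then called too, so that loss was not particular to these genes. The calls for Nr4a1, Nr4a3 and Pde4d were kept without either library of uninduced P cells, where more of all tested genes were called. Each of these fits left 1 library in a condition. The difference for Nr4a1 lay between −2.25 and −1.75 over all libraries left out. Without replica 1 of uninduced P cells the difference was −1.75 for Nr4a1, −2.52 for Nr4a3, −1.57 for Pde4d and −0.92 for Pde4b. Without replica 2 it was −2.25 for Nr4a1, −2.98 for Nr4a3, −1.18 for Pde4d and −0.52 for Pde4b.

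**Figure D4:**
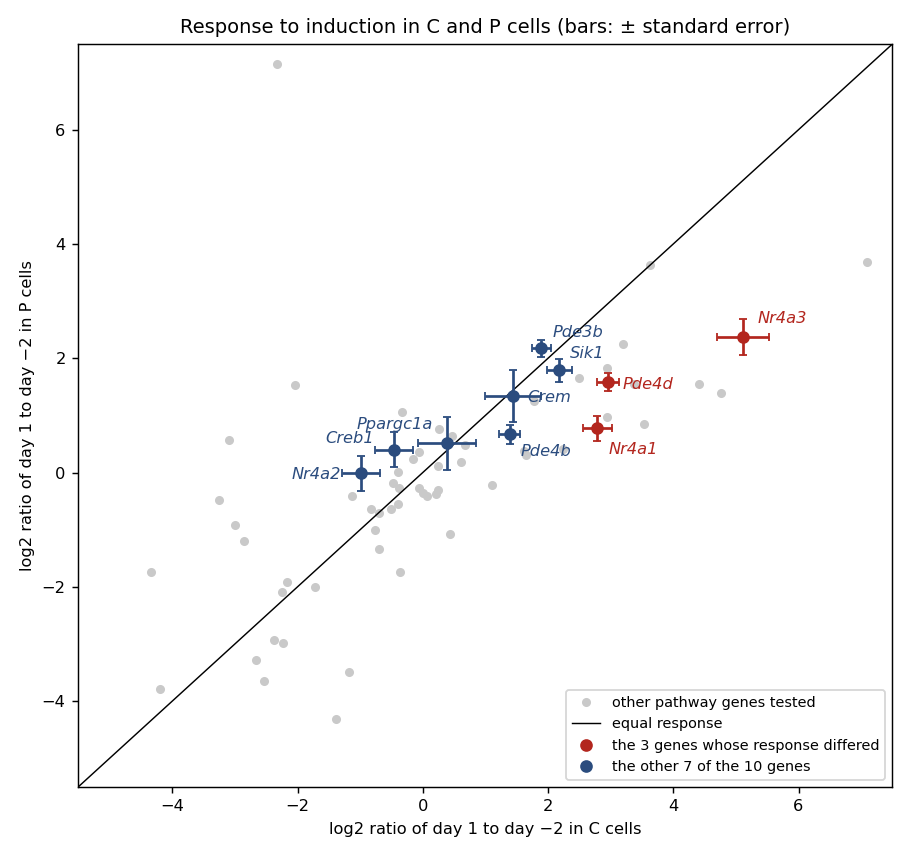
Log2 ratio of day 1 to day −2 in P cells against that in C cells for the 10 genes, with bars of 1 standard error, the line of equal response, the interaction called for red and not for blue points, and other tested pathway genes in grey. Nr4a1, Nr4a3 and Pde4d lie off the line with differences of −2.01, −2.74 and −1.37, while Pde3b, Sik1 and Crem lie near it.

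To place these genes in their pathway, 73 further genes of cAMP production, breakdown, sensing and response were read from the same fit, of which 58 were tested. These lists, like the 10 genes, were drawn up with earlier results of these data known, so their shares are descriptions only. Induction changed 28 of them in C cells, 14 higher and 14 lower, a share of 48.3% against 20.4% of all tested genes. In P cells it changed 22, or 37.9% against 18.0%, with 8 higher and 14 lower, which became 11 higher and 12 lower with library totals. Before induction 10 were higher and 2 lower in P than in C cells, or 20.7% against 6.98%. At day 1 the counts were 3 and 4, or 12.1% against 4.06%, and leaving out any 1 library of C cells took the 7 calls to 4 or fewer and leaving out either day 1 library of P cells to 1 or fewer.

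CREB target genes made up most of the pathway genes that rose. Of 13 tested, 9 rose and 2 fell on induction in C cells, where 10.7% of all tested genes were called higher and 9.68% lower. In P cells 5 rose and 2 fell, where the shares were 7.65% and 10.4%. Gem, a small GTP-binding protein of the RGK family, went from 16.3 to 170 CPM in C cells (log2 ratio 3.38, SE 0.16, adjusted p = 6.8e-05 in edgeR) and from 20.4 to 59.7 CPM in P cells (log2 ratio 1.55). Egr1, an immediate early zinc finger factor, was at 37.0 CPM in uninduced C cells and 131 CPM in uninduced P cells (log2 ratio 1.82, adjusted p = 0.00346 in edgeR), and at 283 CPM in induced C cells. The interaction was called for Gem (−1.83) and Egr1 (−1.96), with a smaller log2 ratio in P cells as for Nr4a1. It was also called for Pde2a (−2.93) and Bdnf (−1.38), which fell on induction in P cells (log2 ratios −4.32 and −1.74). For Pde2a and Bdnf the negative difference was thus a larger fall in P than in C cells, unlike the smaller rise of Nr4a1. These 4 calls were 6.9% of the 58 tested pathway genes, against 2.37% of all tested genes. They became 14 with DESeq2, which called 6.97% of all tested genes in the interaction. Calls were also lost or gained when a single library was left out, so that none of the 4 is secure.

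Among 12 other phosphodiesterases tested, induction raised 3 and lowered 4 in C cells, while for P cells it raised 2 and lowered 3. The shares of all tested genes called higher and lower were 10.7% and 9.68% for C cells. For P cells these shares were 7.65% and 10.4%. Pde10a, a dual-substrate enzyme, rose with Pde4d, from 6.01 to 55.4 CPM in C cells (log2 ratio 3.20, adjusted p = 8.03e-05 in edgeR) and from 11.3 to 54.1 CPM in P cells (log2 ratio 2.26). Pde2a, which cGMP stimulates to hydrolyse cAMP, was at 1.21 CPM in uninduced C cells and 18.4 CPM in uninduced P cells (log2 ratio 3.92, SE 0.40, adjusted p = 0.0037 in edgeR) and fell to 0.912 CPM in induced P cells. Pde4b and Pde2a were thus both higher in P cells before induction, whereas on induction in P cells Pde2a fell and Pde4b had a log2 ratio of 0.67.

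Calls among the receptors and the cAMP-binding proteins were in the lower direction on induction, a direction in which 9.68% of all tested genes were called in C cells and 10.4% in P cells. Of 8 Gs-coupled receptors and G proteins, 3 fell in C cells and 4 fell in P cells. Of 8 genes of protein kinase A and Epac, 3 fell in each line. Ptger4, a prostaglandin E2 receptor, fell by 2.17 in C cells and by 1.92 in P cells on the log2 scale. Prkar2b, a regulatory subunit of protein kinase A, went from 80.7 to 16.9 CPM in C cells and from 128 to 29.9 CPM in P cells. Rapgef3, which encodes the cAMP sensor Epac1, went from 48.7 to 8.42 CPM in C cells and from 28.2 to 2.24 CPM in P cells.

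Adcy7, an adenylyl cyclase, was lower in P than in C cells at both days, at 6.25 against 53.8 CPM at day −2 (log2 ratio −3.11, SE 0.36, adjusted p = 0.00536 in edgeR) and 0.439 against 2.94 CPM at day 1. Of 6 cyclases tested, 1 rose and 1 fell on induction in C cells, and 2 fell in P cells, where 20.4% and 18.0% of all tested genes were called. Among 11 genes of the CREB family, its coactivators and the SIK kinases, Sik2, a relative of Sik1, rose from 23.1 to 78.8 CPM in C cells and from 23.1 to 55.0 CPM in P cells. Ppargc1b, the relative of Ppargc1a, fell in C cells from 83 to 9 counts over both libraries, and induced P cells held 57 counts against those 9 (ratio of normalized counts 7.13, 95% exact interval 3.50 to 16.4). Ppargc1b was called higher in P cells at day 1 (adjusted p = 0.0461 in edgeR), but the call was lost in 5 of 18 alternatives, without either uninduced C library, replica 2 of induced C cells or either induced P library.

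**Figure D5:**
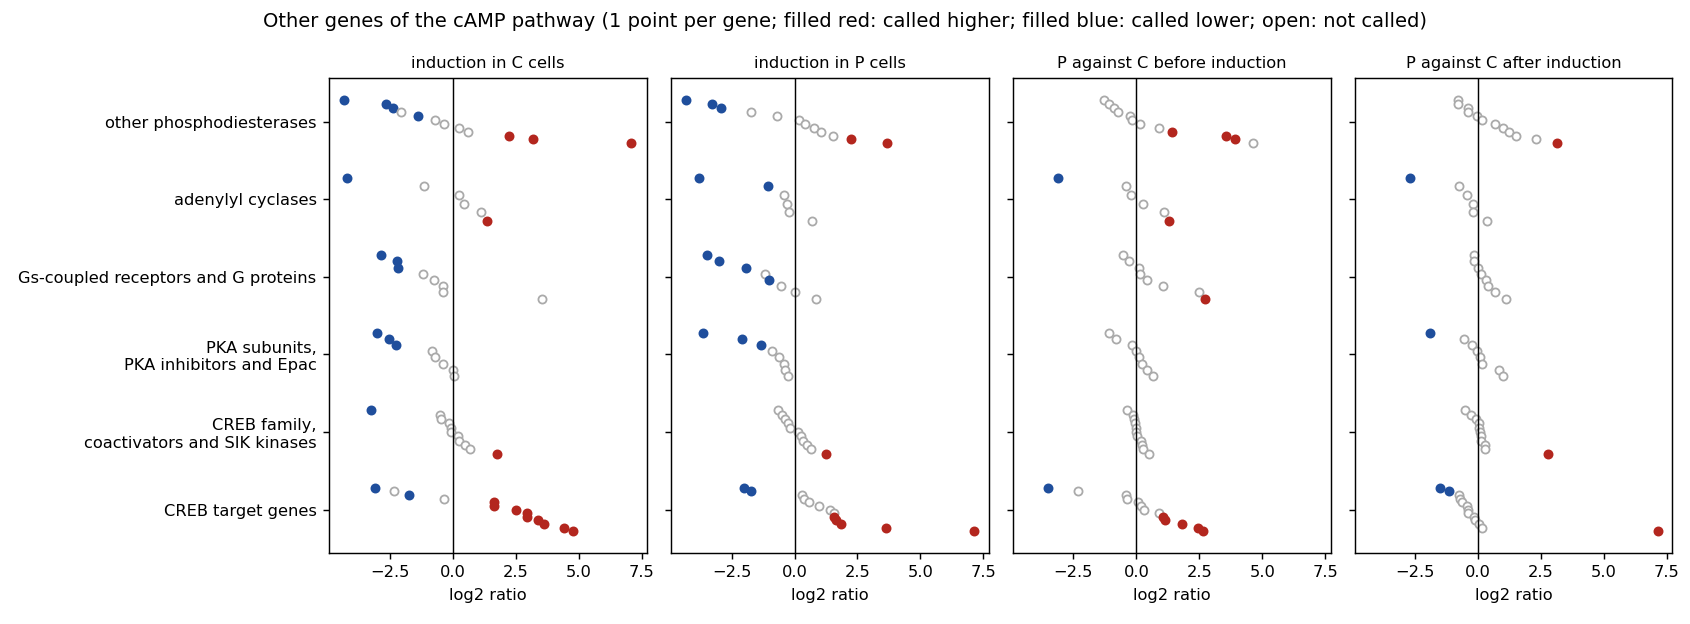
Log2 ratio of each tested gene in 6 lists of other cAMP pathway genes, 1 point per gene, in the 4 comparisons, with calls filled (red higher, blue lower). CREB targets hold most of the red points on induction, 9 of 13 genes in C cells and 5 of 13 in P cells, and the filled points of the receptor and kinase lists on induction are blue.

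The pathway count before induction was sensitive to the libraries. It went from 12 called genes to 2 in a fit of the day −2 libraries alone, which called 0.637% of all tested genes against 6.98%. The pathway count also changed when any single library was left out, and it fell most without either C library of day −2. Leaving out replica 1 of uninduced P cells lowered it. Leaving out replica 2 raised it, in a fit that called far more of all tested genes. Pde1a, at 36.6 and 93.5 CPM in the P replicas, and Adcy6, at 288 and 153 CPM, were called higher in uninduced P cells (log2 ratios 1.40 and 1.29), but their replicas differed more than those of Pde4b, and the calls were lost in 13 and 11 of 19 alternatives.

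Genes whose profile over the 8 libraries was most like that of a member were sought among 10881 well-counted genes by Pearson's r, as a description with no test, since all 8 points share 4 conditions. For Nr4a1 they were Susd6 (r = 0.998), Rnf144a (r = 0.998) and Helz2 (r = 0.995). For Pde4d they were Socs2 (r = 0.995), Ptgfr (r = 0.993) and Pi15 (r = 0.993), and for Pde4b Pid1 (r = 0.987), Adam23 (r = 0.987) and Il1r1 (r = 0.986). The NR4A receptor and the PDE4 genes thus each followed a different set of nearest genes.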

How the data were processed

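RNA from 3T3-L1 C and P cells was sequenced on the Ion Torrent system at day −2 and day 1, with 2 biological replicas per condition and 8 libraries. The labels do not tie replicas to separate cultures, so p-values measure the spread between these libraries. According to the study's methods and labels, reads were cleaned with the FASTX-Toolkit, aligned to the mouse genome mm9 with TopHat2 2.0.9 and counted per refGene gene. The treatment of strand and of reads with several positions is not given in the sources used here. The deposited values are raw counts per gene for 24013 Entrez IDs, 23929 of which matched a symbol in the RefSeq table (GRCm38.p6), and 84 did not.

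Library totals were 20428816 to 27614353 counts, and 3 counts were taken as the limit of detection. Counts were scaled by TMM, filtered with filterByExpr and tested with edgeR 4.0.16 (R 4.3.3) by the quasi-likelihood test, with 1 mean per condition and a spread shared by all 8 libraries. Calls needed a Benjamini-Hochberg adjusted p under 0.1 over 13339 genes and, as in the study, a ratio above 2 or below 0.5. The interaction had no ratio threshold. CPM are counts per 1000000 counts of TMM-scaled totals. Intervals for sparse genes are exact conditional binomial intervals on summed counts and cover counting error only. The test was tested on simulated data with known changes. DESeq2 1.42.0, other scalings and filters, replicate blocks and each library left out in turn were tried as alternatives.

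The 10 genes and the pathway and marker lists were chosen with earlier results of these data known. All members are described; other pathway genes were chosen from up to 2 per list and comparison with the lowest p among those called, with a mean of at least 20 counts and no overlap between the groups, and from the interaction calls. Gene spans of GRCm38.p6 were used only to find genes that overlap a member, since the counts were made on mm9, and no coordinate or sequence is printed.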

Additional observations from a re-analysis of the deposited data

Results flagged for a closer look

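The induction response differed between P and C cells in 3 of the 10 genes, by a test of the difference itself. For Nr4a1 the log2 ratio in P cells minus that in C cells was −2.01 (SE 0.31, adjusted p = 0.0388), for Pde4d −1.37 (SE 0.23, adjusted p = 0.0465) and for Nr4a3 −2.74 (SE 0.53, adjusted p = 0.076), all in the quasi-likelihood test of edgeR with Benjamini-Hochberg adjustment over 13339 genes. In each of these genes P cells already lay above uninduced C cells in both replicas. That difference before induction is itself part of the interaction, through the same day −2 libraries, so the 2 results are not independent. The Nr4a3 value rests on 4 counts in uninduced C cells. It was −2.75 with no filter on low counts, and a minimum of 10 counts in each library removed the gene.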

How the results depend on the processing

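Over 19 alternatives, 8 of which left out 1 library, the 7 members called on induction in C cells became 6 or 7 with a library left out and the 5 in P cells became 4 or 5, and at day 1 the count between the lines stayed at 0. Before induction 4 members were called between P and C cells, where 6.98% of all tested genes were called. They became 2 with library totals in place of TMM scaling (6.13%) and 0 in the fit of the conditions compared alone (0.637%). All 4 member calls were lost without either C library of day −2, and their number also changed when any other library was left out. The 3 interaction calls became 1 with the replicate block, where the share over all tested genes went from 2.37% to 0.877%. They were not stable to leaving out a library, although the fits that lost them also called fewer of all tested genes. The difference for Nr4a1 lay between −2.25 and −1.75. Where leaving out a library left 1 in a condition, that library was assumed to vary like the others.

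The replicate block gave 7, 5, 3, 0 and 1 calls in the 5 comparisons. Over all tested genes it called 18.6%, 15.6%, 4.48%, 2.89% and 0.877%, against 20.4%, 18.0%, 6.98%, 4.06% and 2.37% without a block. Same-numbered libraries deviated together only before induction (correlation 0.209 over 13339 genes; −0.355 to −0.0523 in the other pairs), and whether equal numbers mark a shared batch at day −2 cannot be told from the labels. With the day 1 numbers crossed, a choice made after seeing the data, the interaction had 3 calls (2.35% of all tested genes). With those of P cells alone crossed it had 2 (1.11%).

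Of 920 comparisons of a single member's value with its alternative, 821 kept direction and call, 61 lost the call, 15 gained it and 23 reversed, and in none of the reversed values was the adjusted p under the threshold. Nr4a2 on induction in P cells (−0.02) became 0.13 with library totals, 0.00068 with no filter, 0.030 with the replicate block, and 0.014 and 0.0074 with crossed numbers. Library totals also gave −0.051 for Sik1 before induction, 0.047 for Pde3b at day 1 and 0.14 for the Crem interaction. With a library left out, values of P to C cells before induction ran from −1.19 to 0.29 for Crem, −0.12 to 0.40 for Sik1 and −0.66 to 0.36 for Ppargc1a. At day 1 they ran from −0.29 to 0.021 for Nr4a2, −0.13 to 0.17 for Creb1 and −0.14 to 0.29 for Ppargc1a. On induction in P cells they ran from −0.34 to 0.42 for Nr4a2 and −0.025 to 0.99 for Creb1, and for the interaction from −0.66 to 0.84 for Crem and −0.30 to 0.73 for Ppargc1a. The cause of these changes was not tested. A minimum of 10 counts per library removed Nr4a3 and Ppargc1a from the test, and it took the other pathway genes called from 28 to 19 on induction in C cells, from 22 to 14 in P cells and from 7 to 3 at day 1.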
